A study of Mus musculus with 16 samples.

Results

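Messenger RNA of 10 genes of myostatin, activin and TGF-beta signaling was followed in mouse rotator cuff muscle after tendon and nerve injury. The genes were chosen by symbol: the ligands Mstn and Tgfb2, the secreted binding proteins Fst, Fstl1 and Ltbp4, the receptors Acvr1b, Acvr2b and Tgfbr2, and the intracellular Smads Smad3 and Smad7. All 10 were among the 11710 genes of the count table, and all 10 were among the 11709 that passed the filter on low counts. RNA sequencing covered 16 samples in 4 groups of 4, which crossed strain with surgery. Unoperated and operated C57BL/6J mice (BL6) and unoperated and operated MRL/MpJ mice (MRL) made up the groups, and the operation was a tenectomy, the removal of tendon, together with denervation. BL6 serves widely as a reference strain, and MRL mice are known to close ear wounds unusually well. The series text names the infraspinatus and the sample labels the supraspinatus, so the tissue is called rotator cuff muscle. Age, sex and the time between surgery and collection are not given in the sources used here, and nothing says whether each sample came from a separate animal, so p-values measure the spread between these samples.

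Myostatin, the product of Mstn, is a secreted protein made mainly by muscle fibres that limits muscle mass. Like the activins it binds a type II receptor such as ACVR2B, which recruits a type I receptor such as ACVR1B, and the pair phosphorylates SMAD2 and SMAD3, which enter the nucleus with SMAD4. TGF-beta ligands reach the same Smads through TGFBR2 and TGFBR1, and are kept latent in the matrix by binding proteins of the LTBP family. Follistatin, the product of Fst, traps myostatin and activins outside the cell, and SMAD7 is an inhibitory Smad that blocks the receptors.

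Upstream sequences are shown for Mstn, Smad3 and Tgfbr2, the 3 members whose window overlapped no annotated exon among the 8 with a window. Of these, Mstn and Smad3 fell in both strains and Tgfbr2 was not called in either. Each is the 250 bases before the annotated start in RefSeq's GRCm38.p6, which is the C57BL/6J reference, printed 5′ to 3′ on the strand of the gene: chr1:53061390-53061639 on the plus strand for Mstn, chr9:63757995-63758244 on the minus strand for Smad3 and chr9:116175364-116175613 on the minus strand for Tgfbr2. Capitals mark matches, on either strand, to an E-box (CANNTG, the core bound by myogenic bHLH factors), to a Smad box (CAGAC or its reverse complement GTCTG) or to a FoxO core (GTAAACA or TGTTTAC).
Mstn: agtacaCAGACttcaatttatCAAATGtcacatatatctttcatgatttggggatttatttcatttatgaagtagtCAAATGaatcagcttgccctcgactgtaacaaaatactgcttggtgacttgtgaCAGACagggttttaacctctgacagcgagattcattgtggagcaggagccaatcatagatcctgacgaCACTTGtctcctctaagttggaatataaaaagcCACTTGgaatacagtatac
Smad3: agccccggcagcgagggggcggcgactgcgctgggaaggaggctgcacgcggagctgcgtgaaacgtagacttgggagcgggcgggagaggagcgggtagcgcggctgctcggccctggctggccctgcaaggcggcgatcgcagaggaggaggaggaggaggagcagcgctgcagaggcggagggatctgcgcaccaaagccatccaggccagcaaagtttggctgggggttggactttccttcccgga
Tgfbr2: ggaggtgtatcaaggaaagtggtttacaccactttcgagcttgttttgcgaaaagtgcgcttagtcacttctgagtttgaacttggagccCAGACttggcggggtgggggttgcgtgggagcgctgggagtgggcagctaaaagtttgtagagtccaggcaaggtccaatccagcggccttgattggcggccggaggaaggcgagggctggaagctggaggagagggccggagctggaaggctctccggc
The Mstn window held 4 E-boxes, 2 Smad boxes and no FoxO core, with a GC content of 38.4% against a median of 52.4% over all 32851 windows of the same kind. The Smad3 window held none of these motifs at a GC content of 69.2%, and the Tgfbr2 window held 1 Smad box and no E-box at 58.4%. An E-box was in 66.2% of all windows, a Smad box in 42.2% and the FoxO core in 3.17%, so a match is common for the first pair of motifs. These matches describe letters and not binding.

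Total counts ran from 24323862 to 43552964 per sample. Levels are given as CPM, counts scaled to library sizes that were adjusted by trimmed mean of M values (TMM). Scaled to total counts without that adjustment, 3 counts, the limit that a count of 0 allows, corresponded to 0.0689 to 0.123 CPM. The lowest count of any member in any sample was 55, for Acvr2b in an operated MRL sample. These limits cover counting error only. Mitochondrially encoded genes took 12.2% to 14.2% of counts in unoperated BL6, 17.4% to 23.8% in operated BL6, 10.97% to 11.6% in unoperated MRL and 11.8% to 24.9% in operated MRL, where replicate 4 held the 11.8%. Myofibre markers were high in every sample, as the muscle label requires. Tested markers of the other cell types had passed the filter on low counts, so none could be at 0 throughout. Myf5, Calcr, Lep and Mkx were listed as markers but were not among the genes tested. Replicate 4 of operated BL6 and replicate 1 of unoperated MRL stood apart in markers of fibroblasts, macrophages and tenocytes. The counts of called members are therefore also given without both libraries. Replicate 1 of unoperated BL6 was high in its group as well but was kept in that fit. It held 153 CPM of macrophage markers, against 40.1 to 62.0 CPM in the others, and 1568 CPM of fibroblast markers, against 671 to 951 CPM.

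Per kilobase of exon the members spanned a wide range in unoperated muscle. In unoperated BL6 the highest mean level was that of Smad3, at 20.1 ± 2.49 RPKM (CPM per kilobase; SD, n = 4), followed by Mstn at 19.4 ± 3.02, Ltbp4 at 17.5 ± 2.22 and Acvr1b at 14.5 ± 3.34, and the ranges of neighbours in this order overlapped. The lowest 3 were Acvr2b at 2.53 ± 0.213 RPKM, Smad7 at 1.49 ± 0.127 and Fst at 0.793 ± 0.148, and these did not overlap each other. Mstn stood first in unoperated MRL, at 29.5 ± 4.12 RPKM, with no overlap with Smad3 at 18.8 ± 1.91. After surgery Ltbp4 and Fstl1 headed the order in both strains, with 35.3 ± 11.6 and 29.0 ± 21.7 RPKM in operated BL6 and 26.0 ± 5.15 and 26.3 ± 8.79 in operated MRL, and Acvr2b was last, at 0.654 ± 0.0883 and 0.780 ± 0.273. Fst moved from last place to the middle of the order in both strains, at 4.45 ± 3.73 RPKM in operated BL6 and 4.08 ± 2.70 in operated MRL.

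**Figure D1:**
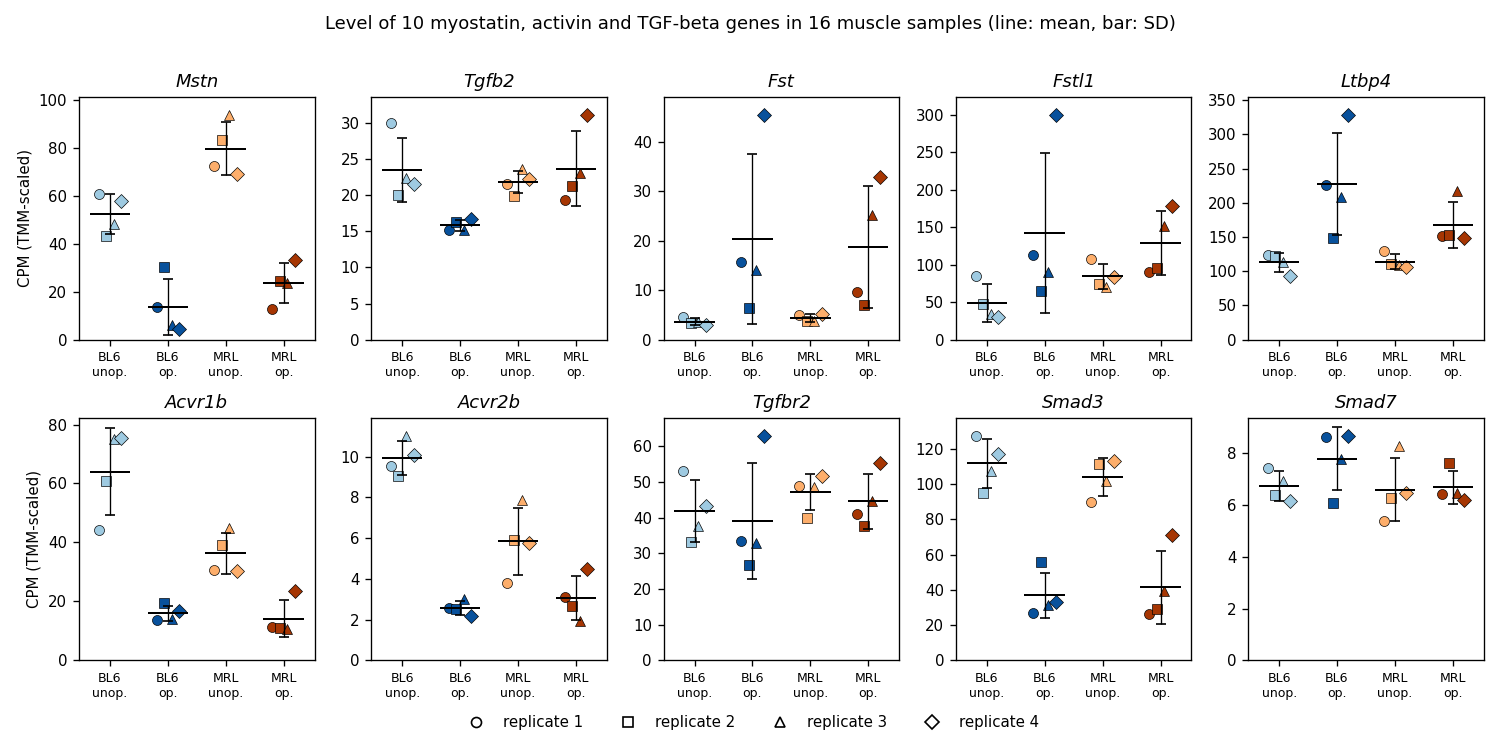
TMM-scaled CPM (y axis, linear, from 0) of the 10 genes in each of the 16 samples, by group (x axis); points are samples with 1 marker shape per replicate number, lines are group means and bars are SDs. Mstn, Acvr1b and Smad3 lie lower in every operated sample of a strain than in its unoperated samples, Fst and Ltbp4 higher, and Smad7 stays between 5.38 and 8.67 CPM in all samples.

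Surgery moved most of the members in BL6. Of the 10, 8 passed edgeR's quasi-likelihood test at an adjusted p of 0.05, with Fst, Fstl1 and Ltbp4 higher and Mstn, Tgfb2, Acvr1b, Acvr2b and Smad3 lower, while Tgfbr2 and Smad7 did not pass. Among all genes tested 67.9% passed in that comparison, 35.1% higher and 32.8% lower, so the count is near the background. In MRL 6 passed, with Fst and Ltbp4 higher and Mstn, Acvr1b, Acvr2b and Smad3 lower, against 45% of all genes, 22.3% higher and 22.7% lower. The median log2 fold change was -0.33 over the members and 0.04 over all genes in BL6, and -0.03 and 0.01 in MRL. Without the pair of libraries that stood apart, 9 members passed in BL6, with Tgfbr2 added among the lower ones, and 6 in MRL. In those fits 64.2% of all genes passed in BL6 and 55% in MRL. In bulk muscle, fewer cells of a type and less RNA per cell cannot be told apart.

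**Figure D2:**
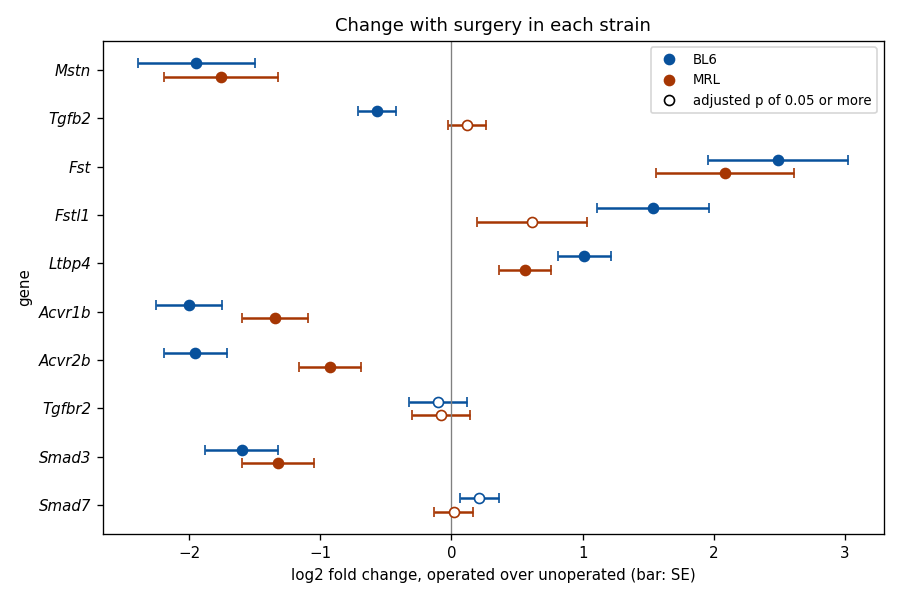
Log2 fold change of operated over unoperated samples (x axis) for each gene (y axis) in BL6 and MRL, with bars of 1 SE; filled points passed edgeR's quasi-likelihood test at an adjusted p of 0.05. Fst has the largest rise in both strains, at 2.49 and 2.09, and Acvr1b, Acvr2b, Mstn and Smad3 lie between -2.0 and -0.93.

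Mstn (ENSMUSG00000026100; GRCm38 chromosome 1, 53061640 to 53068079), the myostatin gene, fell in both strains. Its level was 60.7, 43.2, 48.3 and 57.8 CPM in unoperated BL6 replicates 1 to 4 and 13.6, 30.4, 6.30 and 4.38 CPM in the operated ones. All operated BL6 samples lay below all unoperated ones, but they were spread over a 6.94-fold range, with replicate 2 highest and replicate 4 lowest. This was a log2 fold change of -1.95 (SE 0.44, adjusted p = 0.00138 in edgeR's quasi-likelihood test), and leaving out replicate 2 of the operated group moved it to -2.71. In MRL the samples held 72.4, 83.4, 93.8 and 69.3 CPM without surgery and 12.7, 24.6, 23.6 and 33.2 CPM after it, again with no overlap. That change was -1.76 (SE 0.44, adjusted p = 0.00628 in the same test). Groups did not overlap in either direction for 56.8% of all genes in BL6 and 33.7% in MRL.

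The summed level of 10 myofibre markers also differed between the samples in which Mstn differed. It was 119606 to 163939 CPM in unoperated and 58377 to 138274 CPM in operated BL6, where replicate 2 was highest and replicate 4 lowest, as for Mstn. In MRL it was 111274 to 124028 CPM and then 78131 to 98971 CPM. There the orders differed: among operated MRL samples the sum was highest in replicate 2 and lowest in replicate 3. Mstn was highest in replicate 4 and lowest in replicate 1. Of the 10 markers, 4 passed as lower in BL6 and 2 in MRL, and their part in the Mstn result was not tested.

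Tgfb2 (ENSMUSG00000039239; chromosome 1, 186622792 to 186705989) codes for TGF-beta 2, a ligand of TGFBR2 and TGFBR1. BL6 samples held 30.0, 19.96, 22.4 and 21.6 CPM without surgery and 15.2, 16.2, 15.2 and 16.7 CPM after it. The operated BL6 samples were close together and all below the unoperated ones. The log2 fold change of -0.57 (SE 0.14, adjusted p = 0.00293 in edgeR's quasi-likelihood test) lost its call when libraries were scaled by total counts alone, at -0.43 with an adjusted p of 0.0715, where adjusted p-values over the alternatives ran from 0.000613 to 0.0715. MRL samples held 21.5, 19.9, 23.6 and 22.3 CPM without surgery and 19.4, 21.2, 23.0 and 31.1 CPM after it. These overlapped, and the log2 fold change of 0.12 had an adjusted p of 0.502 in that test. An annotated antisense transcript, Gm29491, shares 124 exonic bases with Tgfb2, and since the counting is not stated to use strand, reads there cannot be told apart.

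Fst (ENSMUSG00000021765; chromosome 13, 114452290 to 114458951), the follistatin gene, had the largest rise among the members. It was at 4.57, 3.42, 3.62 and 2.95 CPM in unoperated BL6 and at 15.7, 6.43, 14.1 and 45.4 CPM in operated BL6. Every operated sample was above every unoperated one, and replicate 4 was far above the rest while replicate 2 was lowest. The log2 fold change was 2.49 (SE 0.53, adjusted p = 0.000875 in edgeR's quasi-likelihood test), and it was 1.73 without replicate 4 of the operated group (adjusted p of 1.75e-06 to 0.00805 over the alternatives). MRL samples went from 5.04, 3.68, 3.87 and 5.09 CPM to 9.70, 7.08, 25.2 and 33.0 CPM, with replicates 3 and 4 well above the other pair. That change was 2.09 (SE 0.53, adjusted p = 0.00671 in the same test). The antisense transcript Gm47040 overlaps 115 exonic bases of Fst, with the same limit on strand.

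Fstl1 (ENSMUSG00000022816; chromosome 16, 37776873 to 37836514) codes for a secreted glycoprotein with a follistatin-like domain that connective tissue cells make in quantity. In BL6 it was at 84.9, 47.2, 33.7 and 30.3 CPM without surgery and at 113, 65.5, 91.0 and 299.7 CPM with it. The groups overlapped, because replicate 1 of the unoperated group lay above replicate 2 of the operated group. The log2 fold change of 1.54 (SE 0.43, adjusted p = 0.00523 in edgeR's quasi-likelihood test) became 0.87 without replicate 4 of the operated group (adjusted p = 0.0322, with 0.000349 to 0.0322 over the alternatives). MRL samples were at 108, 74.9, 70.5 and 84.2 CPM and then at 89.7, 96.3, 152 and 178 CPM. Replicates 3 and 4 were above all unoperated samples and replicates 1 and 2 were not, and the log2 fold change of 0.61 (SE 0.42) had an adjusted p of 0.237 in that test.

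Ltbp4 (ENSMUSG00000040488; chromosome 7, 27305136 to 27337692) codes for a matrix protein that binds latent TGF-beta, and variants of it modify muscular dystrophy in mice. BL6 samples held 123, 122, 113 and 92.4 CPM and, after surgery, 226, 148, 209 and 328 CPM. No operated BL6 sample overlapped the unoperated ones, and the log2 fold change was 1.01 (SE 0.20, adjusted p = 0.000447 in edgeR's quasi-likelihood test). MRL samples held 130.0, 111, 109 and 106 CPM and, after surgery, 151, 153, 218 and 149 CPM. Replicate 3 stood apart and the other operated samples lay close together, all above the unoperated ones. The log2 fold change of 0.56 (SE 0.20, adjusted p = 0.0316 in that test) lost its call without replicate 3 of the operated group, at 0.41 with an adjusted p of 0.124. It also did so without replicate 2, 3 or 4 of the unoperated group, at 0.53 to 0.55 with adjusted p-values of 0.0705 to 0.0816, and adjusted p-values over all its alternatives ran from 0.00714 to 0.124.

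Markers of fibro-adipogenic progenitors and fibroblasts, cells that make many matrix proteins, were set beside these 3 genes. Their summed level over 8 markers was 671 to 1568 CPM in unoperated BL6 and 1732, 1143, 1857 and 5783 CPM in operated BL6 replicates 1 to 4, with replicate 4 highest and replicate 2 lowest, the same samples as for Fst, Fstl1 and Ltbp4. In MRL it was 1345 to 2197 CPM without surgery, and 1828, 1808, 3276 and 3183 CPM after it, with replicates 3 and 4 high as for Fst and Fstl1. Ltbp4 differed there, with replicate 3 highest but replicate 4 lowest of the operated MRL samples, at 149 CPM. Of the 8 markers, 5 passed as higher in BL6 and 2 in MRL, none passed as lower, and their part in the results was not tested.

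Mstn and Fst code for a ligand and its trap, so their levels were set side by side in each sample, per kilobase of exon. The ratio of Mstn to Fst was 22.5, 21.4, 22.6 and 33.2 in unoperated BL6 replicates 1 to 4 and 1.47, 8.02, 0.758 and 0.164 in the operated ones. In MRL it was 24.4, 38.5, 41.1 and 23.1 without surgery and 2.23, 5.90, 1.59 and 1.71 after it. Mstn thus exceeded Fst by at least 21.4-fold in all unoperated samples, and in 2 operated BL6 samples Fst was the higher of the pair. The samples did not order alike in the strains: in operated BL6 the sample with the lowest Mstn had the highest Fst, whereas in operated MRL replicate 4 had the highest of both. This ratio joins both changes already described and was not tested.

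**Figure D3:**
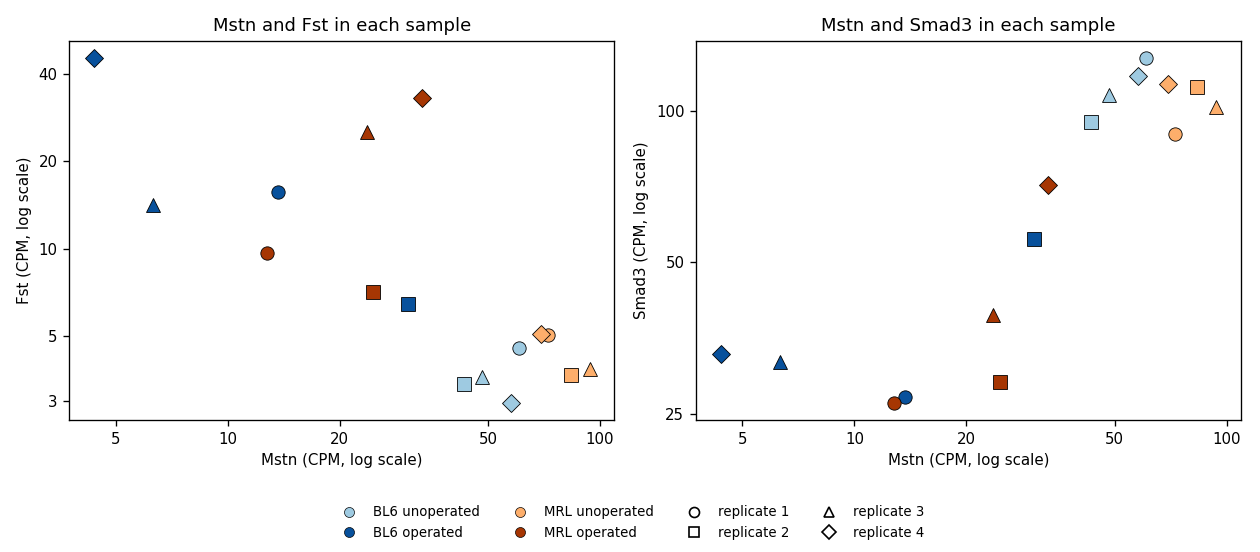
CPM of Fst (left y axis) and Smad3 (right y axis) against CPM of Mstn (x axes) in the 16 samples, all axes on log scales, with colour for the group and marker shape for the replicate number. Unoperated samples have Mstn at or above 43.2 CPM and Fst at or below 5.09 CPM; operated samples spread from replicate 4 of BL6, at 4.38 CPM of Mstn and 45.4 of Fst, to replicate 4 of MRL, which is high in all 3 genes.

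Acvr1b (ENSMUSG00000000532; chromosome 15, 101174067 to 101213684), the type I receptor ALK4 for activins and myostatin, fell in both strains. BL6 samples held 44.2, 61.0, 75.1 and 75.4 CPM without surgery and 13.7, 19.4, 14 and 16.8 CPM after it, far below and close together, with a log2 fold change of -2.0 (SE 0.25, adjusted p = 2.29e-05 in edgeR's quasi-likelihood test). MRL samples held 30.8, 39.0, 44.8 and 30.5 CPM without surgery and 11.5, 10.96, 10.7 and 23.7 CPM after it. All operated MRL samples were below the unoperated ones, and replicate 4 was high among them, with a log2 fold change of -1.35 (SE 0.25, adjusted p = 0.00159 in the same test).

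Acvr2b (ENSMUSG00000061393; chromosome 9, 119402118 to 119434995), the type II receptor that binds myostatin and activins, was the least abundant member after surgery. BL6 samples went from 9.55, 9.07, 11.02 and 10.1 CPM to 2.58, 2.52, 3.01 and 2.16 CPM, with narrow groups and a wide gap between them, a log2 fold change of -1.95 (SE 0.24, adjusted p = 2.02e-05 in edgeR's quasi-likelihood test). MRL samples went from 3.82, 5.93, 7.87 and 5.77 CPM to 3.13, 2.67, 1.95 and 4.50 CPM. Here the groups overlapped, since replicate 4 of the operated group lay above replicate 1 of the unoperated group, and the log2 fold change was -0.93 (SE 0.24, adjusted p = 0.00709 in that test). The call held without either of those samples.

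Tgfbr2 (ENSMUSG00000032440; chromosome 9, 116084293 to 116175360), the type II receptor of the TGF-beta ligands, did not pass in either strain. BL6 samples held 53.3, 33.3, 37.8 and 43.4 CPM without surgery and 33.5, 26.7, 32.9 and 63.0 CPM after it, so that 3 operated samples were low and replicate 4 was above all others. Over all samples the log2 fold change was -0.10 (SE 0.22, adjusted p = 0.697 in edgeR's quasi-likelihood test). Without replicate 4 of the operated group it was -0.44 and passed, at an adjusted p of 0.0321, and with total-count scaling it was 0.11, where adjusted p-values over the alternatives ran from 0.0321 to 0.926. MRL samples held 48.8, 39.8, 48.5 and 51.8 CPM and then 41.1, 37.6, 44.6 and 55.3 CPM, which overlapped, with a log2 fold change of -0.08 (SE 0.22, adjusted p = 0.777 in the main test).

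Smad3 (ENSMUSG00000032402; chromosome 9, 63646767 to 63757994), the transducer of both the activin and the TGF-beta branch, fell in both strains. BL6 samples held 127, 94.9, 107 and 117 CPM and, after surgery, 27.0, 55.7, 31.7 and 32.9 CPM. Replicate 2, the operated BL6 sample with the highest Mstn, also had the highest Smad3. Smad3 had a log2 fold change of -1.60 (SE 0.28, adjusted p = 0.00018 in edgeR's quasi-likelihood test). MRL samples held 90.0, 111, 102 and 113 CPM and, after surgery, 26.3, 29.0, 39.3 and 71.2 CPM. Replicate 4 was again the highest of the operated MRL samples, still below all unoperated ones, and the log2 fold change was -1.32 (SE 0.28, adjusted p = 0.00264 in that test).

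Smad7 (ENSMUSG00000025880), whose product sends the receptors for degradation, was the steadiest of the members. BL6 samples held 7.45, 6.39, 6.92 and 6.17 CPM without surgery and 8.64, 6.08, 7.77 and 8.67 CPM after it. MRL samples held 5.38, 6.29, 8.29 and 6.45 CPM and then 6.41, 7.63, 6.46 and 6.21 CPM. All 4 groups overlapped. The log2 fold changes were 0.21 (SE 0.15, adjusted p = 0.219) and 0.02 (SE 0.15, adjusted p = 0.931) in edgeR's quasi-likelihood test.

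Replicate 4 of operated MRL had the highest level of Mstn, Tgfb2, Fst, Fstl1, Acvr1b, Acvr2b, Tgfbr2 and Smad3 in its group, and it was also the operated sample with the lowest mitochondrial share. Its summed endothelial markers were 306 CPM, against 603 to 745 CPM in the other operated MRL samples, and its summed Schwann cell markers 65.3 CPM against 84.4 to 230 CPM. The part of these differences in the MRL results was not tested. This sample was kept in the fit without the pair of libraries that stood apart. Without this sample the MRL changes were -1.97 for Mstn, -1.72 for Acvr1b, -1.18 for Acvr2b and -1.72 for Smad3. Tgfb2 turned from 0.12 to -0.041 and was called in neither fit. Over the MRL fits that left out any 1 library, Fst ran from 1.67 to 2.36 and Fstl1 from 0.42 to 0.77. Tgfbr2 ran from -0.20 to -0.0072.

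Whether the strains differed in their response to surgery was tested directly by the interaction, the log2 fold change in MRL minus that in BL6. No member passed edgeR's quasi-likelihood test at an adjusted p of 0.05, where 0.248% of all genes did. DESeq2, which called 2.14% of all genes, also called 0 members. At an unadjusted p under 0.05 in edgeR's test there were 2 of 10 members, against 1843 of 11709 genes. That count is near the background. Acvr2b had an interaction of 1.03 (SE 0.33, unadjusted p = 0.00734, adjusted p = 0.191), from a fall of 1.95 in BL6 and one of 0.93 in MRL. Tgfb2 had one of 0.69 (SE 0.20, unadjusted p = 0.0039, adjusted p = 0.161), with -0.57 in BL6 and 0.12 in MRL. The other interactions were within 2 SE of 0, from -0.93 (SE 0.59) for Fstl1 to 0.65 (SE 0.35) for Acvr1b. Fstl1 and Tgfb2, called in BL6 alone, are therefore not shown to respond differently in MRL.

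Among unoperated samples, Acvr1b and Acvr2b passed as lower in MRL, 2 of 10 members against 10.4% of all genes, 5.36% lower and 5.02% higher. Acvr1b was at 63.9 ± 14.8 CPM in BL6 and at 36.3 ± 6.94 in MRL (SD, n = 4), a log2 difference of -0.82 (SE 0.24, adjusted p = 0.043 in edgeR's quasi-likelihood test), and 1 MRL sample lay above the lowest BL6 sample. Acvr2b was at 9.93 ± 0.836 CPM in BL6 and at 5.85 ± 1.65 in MRL, a difference of -0.76 (SE 0.23, adjusted p = 0.0451 in that test), and the groups did not overlap. Both calls lay close to the threshold: total-count scaling, and 6 of the 8 fits that left out 1 library, called neither. Over the alternatives the adjusted p ran from 0.0117 to 0.13 for Acvr1b and from 0.00816 to 0.135 for Acvr2b, with the difference negative in each. Mstn was above all BL6 samples in every MRL sample, at 69.3 to 93.8 CPM against 43.2 to 60.7 CPM, which 25.1% of all genes did in one direction or the other. Its difference of 0.60 (SE 0.42) had an adjusted p of 0.418 in the fit of all 16 samples, and 0.0105 in a fit of these 2 groups alone, with 0.0105 to 0.586 over the alternatives.

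After surgery Tgfb2 was the only member that passed between strains, against 12.9% of all genes, 7.6% higher and 5.27% lower. Its level was 15.9 ± 0.765 CPM in BL6 and 23.7 ± 5.16 in MRL (SD, n = 4), a log2 difference of 0.58 (SE 0.14, adjusted p = 0.0142 in edgeR's quasi-likelihood test), and every operated MRL sample lay above every operated BL6 sample, as for 13.6% of genes in either direction. In a fit of these 2 groups alone the adjusted p was 0.0627, with 0.00351 to 0.0627 over the alternatives. Mstn had a difference of 0.79 (SE 0.44, adjusted p = 0.267 in the main test), which was 1.55 and passed without replicate 2 of operated BL6 (adjusted p = 0.00697, with 0.00697 to 0.495 over the alternatives). Without that same library Ltbp4 passed as lower in MRL, at -0.60, and without replicate 4 of operated BL6 Tgfbr2 passed as higher, at 0.53. Fst differed by -0.12 and by 0.64 without that replicate 4, neither passing.

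**Figure D4:**
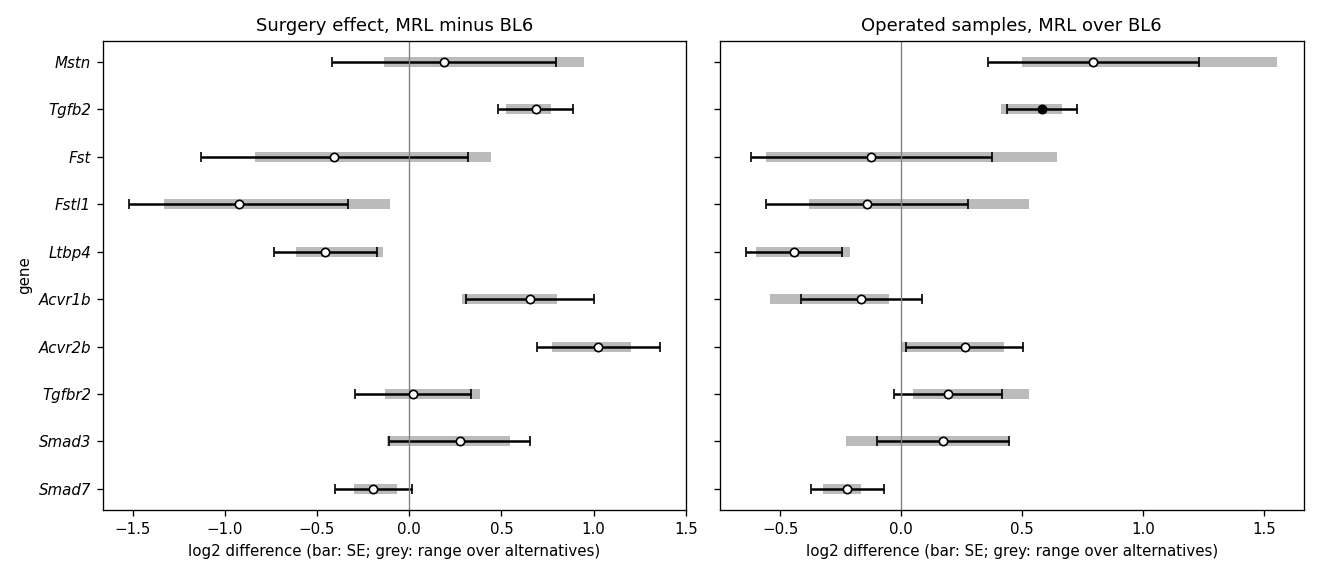
Log2 differences between strains for the 10 genes (y axis): the surgery effect in MRL minus that in BL6 (left) and operated MRL over operated BL6 (right). Points are the values from all 16 samples with bars of 1 SE, a filled point passed the test at an adjusted p of 0.05, and grey bands span the values under the processing alternatives. Tgfb2 on the right is the only filled point; the bands of Mstn and Fst on the left cross 0.

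The members sit in a larger pathway, described here by a list of 81 further genes with 7 roles, of which 69 were tested and 12 were not analysed here. In BL6 50 of the 69 passed, 35 higher and 15 lower, or 72.5% against 67.9% of all genes. In MRL 30 passed, 21 higher and 9 lower, or 43.5% against 45%. Neither share was far from its background. The MRL count was 18 without replicate 2 of unoperated MRL or replicate 3 of operated MRL, where 33.2% and 29.8% of all genes passed. It was 19 without replicate 3 or 4 of unoperated MRL, where 33.7% and 34.9% of all genes passed. Without the pair of libraries that stood apart it was 43, where 55% of all genes passed. Median log2 fold changes were 0.57 in BL6 and 0.35 in MRL, against 0.04 and 0.01 over all genes.

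**Figure D5:**
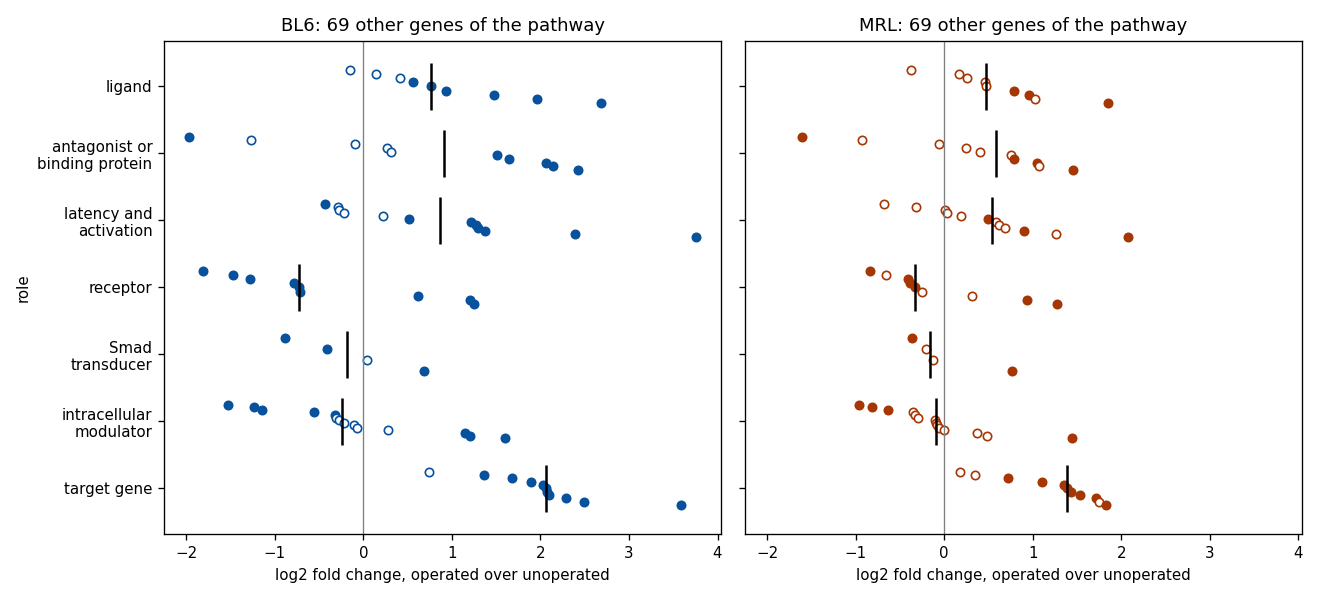
Log2 fold change with surgery (x axis) of the 69 further pathway genes by role (y axis) in BL6 (left) and MRL (right); each point is a gene, filled if it passed the test at an adjusted p of 0.05, and the black bar is the median of the role. Target genes have the highest medians, 2.07 and 1.38, and receptors the lowest, -0.73 and -0.33.

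Ligands of the wider family rose where they passed. Of 9 tested, 6 rose in BL6 and 3 in MRL, and none fell, so that 66.7% and 33.3% passed against 67.9% and 45% of all genes. Split by direction, the shares of all genes to read the counts of each role against were 35.1% higher and 32.8% lower in BL6, and 22.3% higher and 22.7% lower in MRL. Gdf10, a BMP-like ligand also called BMP3b, went from 4.07 ± 0.436 to 26.0 ± 22.0 CPM in BL6 and from 8.75 ± 3.49 to 31.4 ± 12.9 CPM in MRL (SD, n = 4), with log2 fold changes of 2.68 and 1.85. Tgfb1, the ligand best known from fibrosis, rose by 1.96 (SE 0.26) in BL6 and by 0.79 (SE 0.25) in MRL. Gdf11, the closest relative of Mstn, passed in neither strain, at -0.15 and -0.38.

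Extracellular antagonists did not move as one. Of 10 tested, 5 rose and 1 fell in BL6, and 3 rose and 1 fell in MRL, and the 60% and 40% that passed were below the 67.9% and 45% of all genes. Bgn, the proteoglycan biglycan, went from 84.1 ± 40.3 to 451 ± 381 CPM in BL6 and from 93.8 ± 40.7 to 257 ± 87.6 CPM in MRL. The gene that fell in both strains was Wfikkn2, which codes for GASP1, a binding protein of myostatin and GDF11. It went from 18.8 ± 3.70 to 4.83 ± 2.78 CPM in BL6, a log2 fold change of -1.96 (SE 0.33), and from 18.9 ± 2.62 to 6.16 ± 2.52 CPM in MRL, a change of -1.61 (SE 0.32). Fstl3, a second follistatin-like trap of myostatin, rose by 2.14 and 0.79.

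Latency and activation genes included 7 that rose and 1 that fell in BL6, of 12, and 3 that rose in MRL, or 66.7% and 25% against 67.9% and 45% of all genes. Ltbp2, a relative of Ltbp4 found on fibrillin microfibrils, had the largest rise, from 1.42 ± 0.579 to 19.2 ± 25.1 CPM in BL6 and from 2.12 ± 1.55 to 8.87 ± 5.03 CPM in MRL, with an SD above the mean in operated BL6. Furin, the protease that cleaves the precursors of these ligands, went from 44.5 ± 3.20 to 32.8 ± 4.69 CPM in BL6 and was the 1 that fell.

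Receptors split into a pair of sets. All 9 passed in BL6, 3 higher and 6 lower, and in MRL 2 were higher and 4 lower, or 66.7%, against 67.9% of all genes in BL6 and 45% in MRL. The 3 that rose in BL6 were Acvrl1, which codes for the endothelial receptor ALK1, Eng, which codes for its partner endoglin, and Tgfbr3, the coreceptor betaglycan. Acvrl1 rose by 1.25 (SE 0.20) and Eng by 1.2 (SE 0.24) in BL6, and by 0.93 (SE 0.20) and 1.27 (SE 0.24) in MRL. Summed endothelial markers rose with them, from 272 to 376 CPM to 563 to 736 CPM in BL6, with 5 of 6 markers higher in BL6 and 6 of 6 in MRL, and their part in this was not tested. The 6 that fell in BL6 were Bmpr1a, Bmpr1b, Acvr2a, Bmpr2, Tgfbr1 and Acvr1. Bmpr1a, a type I BMP receptor, went from 114 ± 11.9 to 32.4 ± 4.91 CPM in BL6 and from 84.2 ± 19.0 to 46.9 ± 15.6 CPM in MRL, with log2 fold changes of -1.81 and -0.84. Acvr2a, the other type II receptor of myostatin and activins, fell by 1.28 (SE 0.15) in BL6 and by 0.41 (SE 0.14) in MRL, the direction of Acvr2b.

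Among 4 further Smad transducers, 1 rose and 2 fell in BL6, and 1 rose and 1 fell in MRL, or 75% and 50% against 67.9% and 45% of all genes. Smad1 of the BMP branch rose and Smad4, the partner shared by both branches, fell in both strains. Smad5, also of the BMP branch, fell in BL6, with a log2 fold change of -0.42 (SE 0.13). It did not pass in MRL, at -0.20. Smad1 went from 12.6 ± 1.10 to 20.2 ± 4.14 CPM in BL6 and from 11.2 ± 1.42 to 19.1 ± 4.41 CPM in MRL. Smad4 went from 42.9 ± 4.26 to 23.2 ± 1.38 CPM in BL6 and from 45.9 ± 7.59 to 35.6 ± 2.29 CPM in MRL, with log2 fold changes of -0.89 and -0.37. Of 14 intracellular modulators, 3 rose and 5 fell in BL6, and 1 rose and 3 fell in MRL, or 57.1% and 28.6% against 67.9% and 45% of all genes. Zfyve9, whose product SARA anchors Smads at the receptor, went from 112 ± 18.3 to 39.1 ± 13.8 CPM in BL6 and from 69.7 ± 10.01 to 35.6 ± 7.33 CPM in MRL. Bambi, a decoy receptor, went from 1.65 ± 0.491 to 5.03 ± 1.67 CPM and from 1.84 ± 0.509 to 4.98 ± 0.996 CPM.

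Target genes rose together while Smad3 and Smad4 fell. In BL6 10 of 11 passed as higher, and in MRL 8, with none lower in either, which is 90.9% against 35.1% of all genes higher in BL6 and 72.7% against 22.3% in MRL. Postn, the matrix protein periostin, went from 15.0 ± 3.41 to 181 ± 231 CPM in BL6, a log2 fold change of 3.59 (SE 0.76) that rests on samples far apart. Id3, a target of the BMP branch, went from 17.0 ± 2.31 to 60.2 ± 9.94 CPM in MRL, a change of 1.82 (SE 0.22). Levels of fibroblast markers are given above. Summed smooth muscle and pericyte markers, 1 of which is the target gene Acta2, went from 473 to 535 CPM to 745 to 1200 CPM in BL6 and from 357 to 489 CPM to 651 to 1139 CPM in MRL. Their part in the rise was not tested.

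No listed gene passed the interaction in edgeR's quasi-likelihood test. At an unadjusted p under 0.05 in edgeR's test there were 11 of 69, against 1843 of 11709 genes, which is near the background. DESeq2 called 1 listed gene, Acvr2a, where it called 2.14% of all genes. Between unoperated strains 2 of 69 passed, 2.9% against 10.4% of all genes. Leaving out any 1 library of these groups left 0 to 1 of them called, against 7.01% to 9.41% of all genes. Bmpr1b was higher in MRL, at 13.8 ± 3.31 against 7.44 ± 1.31 CPM (adjusted p = 0.0459), and Zfyve9 lower, at 69.7 ± 10.01 against 112 ± 18.3 CPM (adjusted p = 0.0487). After surgery 8 of 69 passed (11.6% against 12.9% of all genes), all higher in MRL: the receptors Acvr2a, Bmpr1b, Bmpr2 and Tgfbr1, the transducer Smad4, the integrin subunit Itgav, the BMP antagonist Nog and the ubiquitin ligase Rnf111. Acvr2a was at 26.4 ± 3.76 CPM in operated MRL and 13.7 ± 2.36 CPM in operated BL6, a log2 difference of 0.95 (SE 0.15, adjusted p = 0.000345 in that test). Bmpr1b was at 8.68 ± 3.88 and 2.68 ± 0.400 CPM, a difference of 1.70 (SE 0.28), and Smad4 at 35.6 ± 2.29 and 23.2 ± 1.38 CPM, a difference of 0.62 (SE 0.12). A fit of these 2 groups alone called Acvr2a, Bmpr1b and Smad4 and no other listed gene, where 4.91% of all genes were called.

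The authors' deposited table gives its own tests of the surgery and strain comparisons. The authors' deposited table has 8 members that passed a false discovery rate of 0.05 for surgery in BL6, all 8 of those called above. For surgery in MRL the authors' deposited table called 7, the 6 called above and Fstl1, at a log2 fold change of 0.90 and a false discovery rate of 0.0315. Its rise of Fst was 1.94 in BL6 and 2.36 in MRL, so that the authors' deposited table has the larger value in MRL where the fit above has it in BL6. Between unoperated strains the authors' deposited table called no member, with false discovery rates of 0.0613 for Acvr1b and 0.0589 for Acvr2b, and between operated strains it called Tgfb2. In that last comparison 8 members had the same sign as in the fit above. The signs differed for Fst, at 0.43 against -0.12 above, and for Fstl1, at 0.36 against -0.14, and neither gene was called in either.

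Genes with a profile most like that of Mstn, Fst and Smad7 were found by the root mean square difference of log2 CPM over the 16 samples, after centring each gene on its own mean. For Mstn these were Amd1 (0.337), Stab2 (0.381) and Ppp1r3a (0.416), against a median of 1.32 over all genes. For Fst they were Aoc3 (0.225), Fhl2 (0.265) and Cebpa (0.303), against a median of 1.24, and Cebpa is also an adipocyte marker. Summed adipocyte markers went from 214 to 286 CPM to 1229 to 1714 CPM in BL6, and from 270 to 380 CPM to 1128 to 1924 CPM in MRL. In operated BL6 replicate 4 had the highest Fst and the highest sum. In operated MRL replicate 4 had the highest Fst and the lowest sum. The part of these markers in the Fst result was not tested. For Smad7 they were Khnyn (0.138), Ripk2 (0.141) and Wiz (0.142), against a median of 0.419. A flat gene such as Smad7 is near many others, so its values describe little beyond a steady level.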

How the data were processed

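Mouse muscle RNA was sequenced in 16 samples, whose strain, surgery and replicate numbers came from the labels. Minced muscle was extracted with an miRNeasy kit and DNase I, per the labels' protocols. FastQC, STAR, edgeR and mm10 are named in the submitters' processing notes, without versions; the counter and its use of strand are not given in the sources used here. The authors deposited whole-number counts per gene, read as raw from the values, and a table with log2 fold changes, an average log2 CPM and p-values with false discovery rates per the file headers.

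Here, edgeR 4.0.16 in R 4.3.3 was fitted to the deposited counts with TMM factors and filterByExpr (minimum count 10), with 1 mean per group over all 16 samples. The quasi-likelihood test gave 5 comparisons, adjusted by Benjamini-Hochberg over 11709 genes and called under 0.05. RPKM is CPM per kilobase of exon in GENCODE M21 (GRCm38, the assembly of mm10), which also gave coordinates. DESeq2 1.42.0, limma 3.58.1, other scalings, filters and left-out libraries were the alternatives. Replicate pairs differed by far more than sampling noise, so all 16 samples were counted.

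The members and the lists were chosen with earlier results of these data known. Of the further pathway genes, the text names the called gene with the largest rise and fall per role and every one called between strains. Tgfb1, Gdf11, Fstl3, Tgfbr3, Acvr1, Smad5 and, in places, other genes named by the rule elsewhere were added after their values were seen. Likeness named 3 genes each for Mstn, Fst and Smad7.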

Additional observations from a re-analysis of the deposited data

Results flagged for a closer look

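Of 40 sets of 4 values, 1 per member and group, 2 held a sample whose gap to the nearest other was large for the range of its group, by Dixon's criterion for 4 samples; chance alone marks about 1 in 20 such sets. Ltbp4 was at 217.7 CPM in replicate 3 of operated MRL, against 149 to 153 CPM in the other 3, and the MRL rise of Ltbp4 was not called without this sample. Acvr1b was at 23.7 CPM in replicate 4 of operated MRL, against 10.7 to 11.5 CPM in the other 3, and the MRL fall of Acvr1b was larger without it.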

How the results depend on the processing

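Of the calls for surgery, 7 of 8 in BL6 and 5 of 6 in MRL held their direction and side of the threshold in every alternative run; Tgfb2 in BL6 and Ltbp4 in MRL did not, as given above. Total-count scaling moved the median of all genes by 0.14 in BL6 surgery and by 0.14 between unoperated strains. The cause of the changes below was not tested, apart from fits with fewer samples.

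With total counts, 19 listed genes were called for surgery in MRL, against 33.5% of all genes. Among unoperated strains that scaling called no member and 1 listed gene, against 9.01% of all genes. The listed genes called between unoperated strains were also 1 with DESeq2's size factors, 1 with limma-voom, and 8 in a fit of 2 groups alone. The shares of all genes there were 10.3%, 10.3% and 20.8%. That smaller fit of operated strains called no member and 3 listed genes, against 4.91% of all genes. DESeq2 called 1 listed gene in the interaction, against 2.14% of all genes. Without the pair of libraries that stood apart, no member was called between unoperated strains, against 9.67% of all genes. In that fit 43 listed genes were called for surgery in MRL and 12 between operated strains, against 55% and 14.1% of all genes. Leaving out 1 library at a time gave 8 to 9 members and 47 to 50 listed genes for surgery in BL6, 5 to 6 and 18 to 37 in MRL, 0 and 0 in the interaction, 0 to 2 and 0 to 1 between unoperated strains, and 1 to 3 and 4 to 10 between operated strains. Over all genes the shares were 61.4% to 69.8%, 29.8% to 52.5%, 0.00854% to 0.589%, 7.01% to 9.41% and 8.8% to 15.7%, in that order.

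With the replicate number as a block, 8 members were called for surgery in BL6 and 6 in MRL, 1 member (Acvr1b) and 1 listed gene between unoperated strains, where Acvr2b had an adjusted p of 0.0608, and 6 listed genes between operated strains. Of all genes, 67.7%, 44.4%, 9.79% and 11.6% were called with the block in these comparisons, in that order. Deviations of same-numbered samples correlated at -0.14, 0.09, 0.16 and 0.16 on average in the comparisons of groups, against 0.05, -0.04, -0.05 and -0.04 for other pairs. In the last 3 of these, 3 of 4 pairs were above 0.1; as in none were all 4, and the labels name no shared source, the numbers were not taken to pair the samples.

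Signs turned only for values that were not called. With total counts Tgfbr2 was 0.11 in BL6 and -0.13 in the interaction, and between unoperated strains Tgfb2 was 0.028, Smad3 0.034 and Smad7 0.11. Without the 2 libraries, Smad7 was -0.062 in MRL, Mstn -0.14 and Fst 0.44 in the interaction, Ltbp4 -0.066 and Smad7 0.046 between unoperated strains, and Fst 0.65 and Fstl1 0.53 between operated strains. Further turned values were -0.0060 for the Tgfbr2 interaction with genes of at least 5 CPM, -0.0041 for Ltbp4 between unoperated strains without mitochondrially encoded genes, and 0.068 for Fstl1 between operated strains with limma-voom. On leaving out 1 library at a time, ranges that crossed 0 were -0.44 to 0.043 for Tgfbr2 in BL6, and -0.041 to 0.20 for Tgfb2 and -0.062 to 0.15 for Smad7 in MRL. In the interaction they were -0.098 to 0.95 for Mstn, -0.84 to 0.37 for Fst, -0.12 to 0.36 for Tgfbr2 and -0.12 to 0.54 for Smad3. Between unoperated strains they were -0.18 to 0.024 for Tgfb2, -0.072 to 0.054 for Ltbp4 and -0.16 to 0.047 for Smad7, and between operated strains -0.56 to 0.64 for Fst, -0.38 to 0.53 for Fstl1, -0.00066 to 0.43 for Acvr2b and -0.23 to 0.44 for Smad3. Depth limits none of the members, whose lowest count was 55, and 4 samples per group set the precision.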
